A study of Mus musculus with 6 samples.

Results

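The mouse Hox clusters carry the genes of the microRNAs (miRNAs) miR-10a, miR-10b, miR-196a and miR-196b, whose mature forms were followed in heart muscle at death and 6 d later. Members were all rows named for one of these 4 miRNAs, which gave 7 of the 984 miRNAs in the deposited files: both arms of miR-10a, both arms of miR-10b, miR-196a-5p, miR-196a-1-3p and miR-196b-5p. Small RNA of mouse heart muscle (myocardium) was sequenced at post-mortem intervals, the time from death to sampling, of 0 h and 6 d, and each interval had 3 libraries. Neither strain, age, sex nor storage of the bodies is given in the sources used here, and nothing says whether separate mice gave the 3 samples of an interval, so every p-value here refers to the scatter among these samples alone, and that scatter may be technical. The title of the series names estimation of the post-mortem interval as its subject.

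A miRNA gene is transcribed into a precursor that folds into a hairpin, and the hairpin is cut into a 5p and a 3p arm. Usually one arm is kept as the guide that directs the silencing of messenger RNAs, mainly through its seed, bases 2 to 8, while the other, the passenger, is mostly degraded. The Hox clusters encode the transcription factors that pattern the body axis, and miR-10 and miR-196 are conserved members of these clusters that are known to repress Hox messenger RNAs, miR-196 in particular Hoxb8. In blood vessels miR-10a is known as a brake on inflammatory signalling in endothelium. The genes miR-99a, miR-99b, miR-100, miR-125a and miR-125b lie outside the Hox clusters and are counted with miR-10 as one wider family because their 5p arms resemble each other.

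The mature sequences show why the paralogs are hard to separate and how they relate to the wider family. They are printed 5′ to 3′ from RefSeq (build GRCm38.p6), with the seed in capitals; all 7 members, and 851 of the 984 miRNAs, were found there by name.
miR-10a-5p: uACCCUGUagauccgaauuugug
miR-10b-5p: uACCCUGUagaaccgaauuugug
miR-10a-3p: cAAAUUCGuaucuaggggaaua
miR-10b-3p: cAGAUUCGauucuaggggaaua
miR-196a-5p: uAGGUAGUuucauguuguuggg
miR-196b-5p: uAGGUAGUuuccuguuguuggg
miR-196a-1-3p: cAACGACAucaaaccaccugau
miR-99a-5p: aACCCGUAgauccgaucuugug
miR-100-5p: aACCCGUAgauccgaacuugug
miR-125b-5p: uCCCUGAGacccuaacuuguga
The 5p arms of miR-10a and miR-10b are both 23 bases long, share the seed ACCCUGU and differ by the single substitution U12A, counted from the 5′ end with the base of miR-10a first. The 5p arms of miR-196a and miR-196b share the seed AGGUAGU and also differ at position 12 alone, by A12C. Among the 851 matched miRNAs no other row carried either of these seeds. The 3p arms of miR-10a and miR-10b differ by A3G, U9A and A10U, so that their seeds are not the same. The seed of miR-99a-5p, miR-99b-5p and miR-100-5p is ACCCGUA, although miR-100-5p matches miR-10a-5p at 20 aligned bases with 1 gap. Arms that differ by 1 base can share reads, and the sources used here do not say how the authors assigned such reads. The split between miR-10a-5p and miR-10b-5p is therefore uncertain. So is that between miR-99a-5p and miR-100-5p, which differ by the single substitution U16A, with the base of miR-99a first.

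The hairpins of both miR-10 genes are shown because the 2 arms compared below come from them, with the arms in capitals.
Mir10a: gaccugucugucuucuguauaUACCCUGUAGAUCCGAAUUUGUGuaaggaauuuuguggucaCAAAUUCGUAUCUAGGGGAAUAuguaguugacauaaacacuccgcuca
Mir10b: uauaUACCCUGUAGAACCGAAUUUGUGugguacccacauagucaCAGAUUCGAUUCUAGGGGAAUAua
Mir10a lies at chr11:96317165-96317274 on the plus strand (GRCm38.p6), inside no other gene of the GENCODE annotation vM21, 0.993 kb before Hoxb4. Mir10b lies at chr2:74726070-74726137 on the plus strand, in introns of Hoxd4 and Hoxd3. Mir196a-1 (chr11:96265164-96265265, plus strand) lies outside other genes, 6.19 kb before Hoxb9, and thus in the same cluster as Mir10a. Mir196a-2 (chr15:102973350-102973434, plus strand) lies in an intron of the Hoxc5 model, between Hoxc10 and Hoxc9, and yields the same 5p arm as Mir196a-1. Mir196b (chr6:52230081-52230165, minus strand) overlaps Hoxa9, being exonic in 2 of the spanning non-coding transcripts and intronic in 1. The build used by the authors is not given in the sources used here, and no value below depends on these positions.

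**Figure D1:**
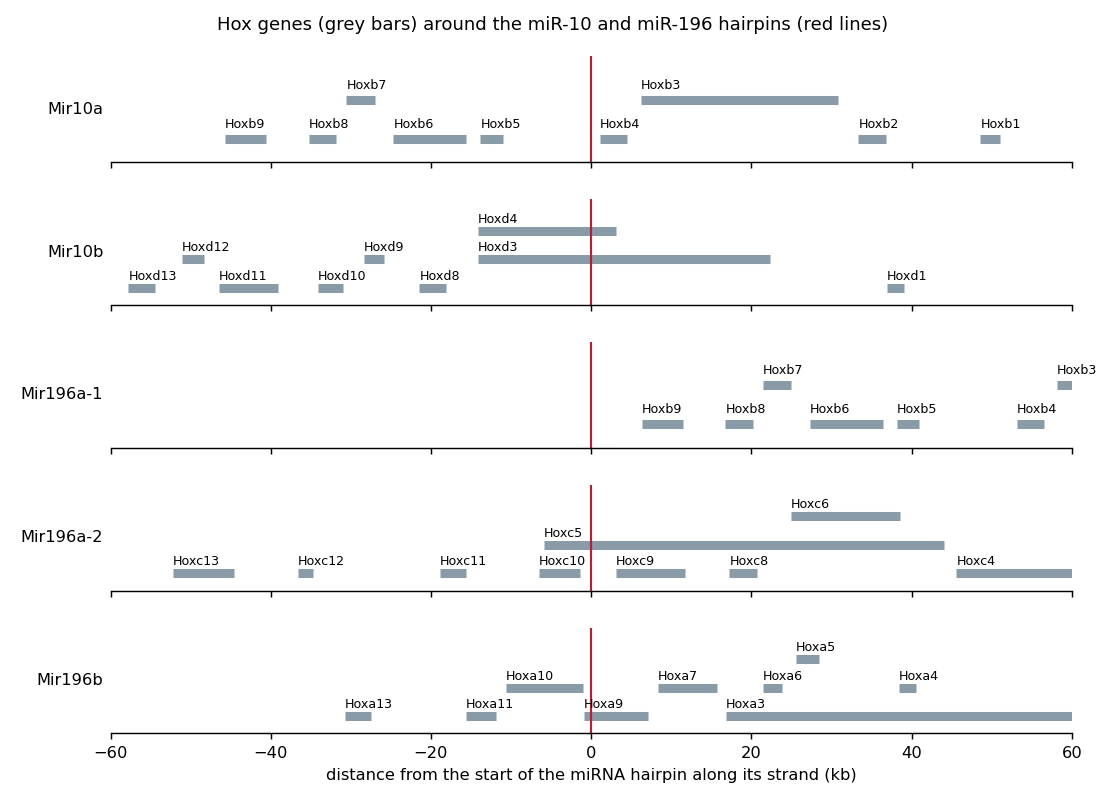
Hox genes around each hairpin. The x axis gives the distance in kb from the start of the hairpin along its own strand, grey bars are protein-coding Hox genes as annotated in GENCODE vM21 and the red line is the hairpin. Each of the 5 hairpins lies within a Hox cluster, and Mir10b, Mir196a-2 and Mir196b lie inside the span of a Hox gene.

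Depth differed between the groups, with 4468547 to 7906557 miRNA reads per library at 0 h and 617069 to 1889594 at 6 d, so depth and interval cannot be told apart. Levels are given as normalised CPM, that is reads per 1000000 miRNA reads divided by the scaling factor of the library. A count of 3 reads, taken as the floor, was worth 0.463 to 0.730 CPM at 0 h and 1.91 to 3.97 CPM at 6 d. All 5 cardiac muscle markers looked for had reads in every library, and miR-1a-3p was the most abundant miRNA in all 6. The cardiac markers were not steady: 1 of the 5 was called higher and 2 lower at 6 d, and their sum ran from 256919 to 491616 CPM at 0 h and from 113393 to 535915 at 6 d. Markers of other cells also moved with the interval: the 7 epithelial markers summed to 139 to 439 CPM at 0 h and 1408 to 2579 at 6 d (6 of 7 called higher), with miR-429-3p at 0 in 1 library at 0 h. The skeletal muscle miR-206-3p stood at 8.34 to 15.3 against 685 to 1440 CPM, the liver miR-122-5p at 668 to 1406 against 2086 to 23460, and 3 red blood cell markers summed to 22959 to 30098 against 57666 to 105053 CPM (1 of 3 called higher). Of these 3, miR-451a stood at 11544 to 15096 against 45135 to 95485 CPM. The groups overlapped for miR-486a-5p (11385 to 14971 against 9560 to 12511) and miR-144-3p (29.3 to 44.5 against 7.94 to 45.8). The 2 endothelial markers summed to 56921 to 88648 against 25279 to 35076 CPM (1 called lower), the 4 leukocyte markers to 417 to 579 against 555 to 1026 and the 2 smooth muscle markers to 75146 to 79578 against 27916 to 90469, with none called in the last 2 lists. Of the endothelial pair, miR-126a-3p stood at 56304 to 87560 against 24644 to 34088 CPM, while miR-126a-5p overlapped (617 to 1088 against 635 to 989). The part of all these markers in the values below was not tested. In such bulk samples fewer cells of a type and less RNA per cell cannot be told apart.

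None of the members passed the test between 6 d and 0 h. The 5p arms mmu-miR-10a-5p and mmu-miR-10b-5p (mmu stands for mouse) were among the 67 most abundant miRNAs in every library, while the 3p arms and the miR-196 members were rare. The test was limma on log2(CPM + 1) over the 470 miRNAs with at least 1 CPM in at least 3 libraries, with a Benjamini-Hochberg adjusted p under 0.05 as the threshold; 5 of the 7 members passed this filter, and both miR-196a rows did not. Of these 5, 0 were called by limma, beside 37.9% of all tested miRNAs (16.0% higher and 21.9% lower at 6 d), and 1 had an unadjusted p under 0.05, beside 47.7%. By edgeR 0 of the 4 tested were called, beside 41.6% (22.0% higher and 19.6% lower). DESeq2 called 0 of 5, beside 33.7%, and limma-voom 0 of 4, beside 43.3%. The 6 d libraries lay wholly apart from the 0 h libraries in 2 of the 5, both lower, while over all tested miRNAs this held for 50.6% (30.9% lower and 19.8% higher). The median log2 fold change was -0.50 over the 5 and -0.33 over all tested miRNAs. That last median was 0.02 when only library totals were used for scaling and -0.17 with RLE size factors, so each change depends in part on the scaling.

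The order of the members by level was the same at 0 h in each library down to miR-10b-3p: miR-10a-5p, miR-10b-5p, miR-10a-3p, miR-196b-5p, miR-10b-3p. At 0 h the ranges of these neighbours did not overlap. At 6 d miR-10a-5p still stood above miR-10b-5p in each library, but miR-10a-3p (3.97 to 6.32 CPM) and miR-196b-5p (2.71 to 11.9 CPM) overlapped.

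**Figure D2:**
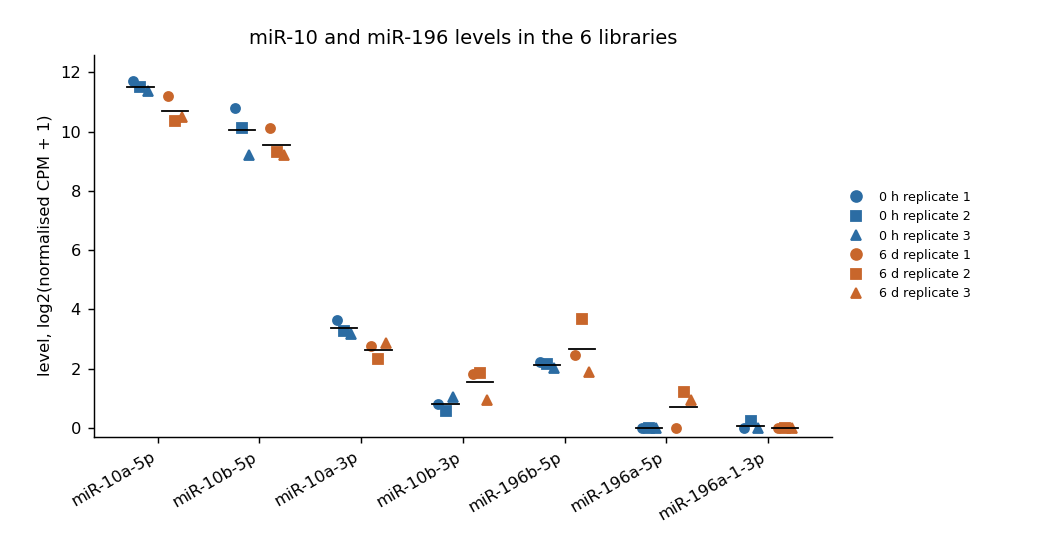
Level of the 7 members in each library. The y axis is log2(normalised CPM + 1), each point is 1 library (blue 0 h, orange 6 d, shape by replicate number) and the bar is the mean of 3. For miR-10a-5p the 3 points at 6 d lie below the 3 at 0 h, while for miR-10b-5p, miR-10b-3p and miR-196b-5p the groups overlap.

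Among the guide arms, mmu-miR-10a-5p was the most abundant member. Its level was 3334, 2893 and 2635 CPM in 0 h replicates 1, 2 and 3, and 2366, 1310.5 and 1446 CPM in 6 d replicates 1, 2 and 3. All 6 d libraries lay below all 0 h libraries, with 6 d replicate 1 nearest to them. From a 0 h mean of 2954 ± 353 CPM it went to 1708 ± 574 (SD over 3 libraries), a log2 fold change of -0.83 ± 0.33 (SE) with a 95% interval of -1.57 to -0.10. This did not pass the threshold (limma adjusted p = 0.069, unadjusted 0.030). Relative to the median of all tested miRNAs the log2 fold change was -0.50, and 35.5% of tested miRNAs had a lower one. Without 6 d replicate 1 the log2 fold change was -1.09 and was called (limma adjusted p = 0.019), while over the other alternatives the adjusted p ran from 0.055 to 0.55.

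The separation of miR-10a-5p came with the scaling. As a plain share of the miRNA reads it made up 0.306%, 0.220% and 0.234% at 0 h (95% exact binomial intervals 0.301 to 0.312, 0.217 to 0.223 and 0.230 to 0.237), and 0.197%, 0.141% and 0.260% at 6 d (0.190 to 0.203, 0.133 to 0.151 and 0.247 to 0.273). On this scale 6 d replicate 3, whose scaling factor, recovered from the deposited values, was 1.80 against 0.760 to 1.08 in the other libraries, stood above 2 of the 0 h libraries, and the log2 fold change with library totals alone was -0.37 (limma adjusted p = 0.55). Binomial intervals speak of counting error alone, because PCR copies were not marked by molecular identifiers. By rank miR-10a-5p was number 29, 31 and 33 of the 984 at 0 h and 29, 38 and 34 at 6 d.

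The paralog mmu-miR-10b-5p, which has the same seed and therefore largely the same predicted targets, varied more among the 0 h libraries. It stood at 1763, 1122 and 598 CPM in 0 h replicates 1, 2 and 3 and at 1124, 633 and 589 in the 6 d replicates. The groups overlapped, and 0 h replicates 2 and 3 lay within the range of the 6 d libraries. From a 0 h mean of 1161 ± 583 CPM it went to 782 ± 297 (SD over 3 libraries), a log2 fold change of -0.50 ± 0.44 (SE), with a 95% interval of -1.49 to 0.50 (limma adjusted p = 0.40). Leaving out 0 h replicate 1 brought it to -0.13 and leaving out 0 h replicate 3 to -0.91, neither past the threshold. With library totals alone it was -0.04.

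Scaling cancels in the ratio of the paralogs within a library. In the libraries at 0 h miR-10a-5p made up 65.4%, 72.1% and 81.5% of the reads of both 5p arms (exact binomial 95% intervals 64.8 to 66.1, 71.5 to 72.6 and 81.0 to 82.0). At 6 d it made up 67.8%, 67.4% and 71.1% (66.5 to 69.0, 65.0 to 69.8 and 69.1 to 72.9). The 0 h libraries thus differed from each other by more than counting error, and the 6 d values fell inside their range. The log2 ratio averaged 1.47 ± 0.62 at 0 h and fell within that spread at 6 d, 1.14 ± 0.14 (SD, n = 3), a difference of -0.34 (exact two-sided permutation p = 0.6, with 0.1 the smallest that 3 against 3 libraries allow). Since the bases of the paralogs differ only at position 12, their reads were also summed: the sum had a log2 fold change of -0.75 ± 0.34 (SE, limma adjusted p = 0.11).

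The 3p arms are usually the passenger strands of these hairpins. For mmu-miR-10a-3p the 0 h libraries held 47, 52 and 52 reads (11.4, 8.65 and 8.03 CPM), and the 6 d libraries 9, 3 and 7 (5.73, 3.97 and 6.32 CPM). All 6 d levels lay below all 0 h levels, and the log2 fold change was -0.72 ± 0.39 (SE, limma adjusted p = 0.18). This separation also came with the scaling. As a plain share of the miRNA reads, 6 d replicate 3 (0.00113%) stood above all 0 h libraries (0.00105%, 0.000658% and 0.000712%). Its 7 reads gave an exact binomial 95% interval of 0.000456% to 0.00234%, which takes in all the 0 h shares, so this order is within counting error. The log2 fold change was -0.30 with library totals alone and -0.20 after every library was thinned to 617069 reads. For mmu-miR-10b-3p the 0 h libraries held 3, 3 and 7 reads, and the 6 d libraries 4, 2 and 1, or 0.730, 0.499 and 1.08 against 2.55, 2.65 and 0.903 CPM. Its groups overlapped, and 2 of the 6 d libraries were under the floor. It had a log2 fold change of 0.73 ± 0.43 (SE, limma adjusted p = 0.21), which was not called. Pooling its reads by interval gave a 6 d to 0 h ratio of 2.60, with an exact 95% counting interval of 0.879 to 7.02. Without 6 d replicate 3, which had 1 read, the log2 fold change was 1.04 and was called (limma adjusted p = 0.046). That call rests on 4 and 2 reads at 6 d. The filter of 1 CPM also asked for fewer reads at 6 d. There 1 read was worth 0.636 to 1.32 CPM, against 0.154 to 0.243 at 0 h. Only 0 h replicate 3 and 6 d replicates 1 and 2 reached 1 CPM, so the call is not counted as support for a rise.

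In both genes the 5p arm was the dominant one at either interval. The 3p arm made up 0.342%, 0.298% and 0.304% of the miR-10a reads at 0 h (exact binomial 95% intervals 0.251 to 0.455, 0.223 to 0.391 and 0.227 to 0.398) and 0.241%, 0.302% and 0.435% at 6 d (0.110 to 0.458, 0.0623 to 0.880 and 0.175 to 0.894). These intervals overlap, and the 5p to 3p ratio (log2, each arm raised by 1 read) changed by -0.24 ± 0.42 (SE, n = 3 each, limma adjusted p = 0.67). For miR-10b the 3p share was 0.0414%, 0.0445% and 0.180% at 0 h (0.00854 to 0.121, 0.00917 to 0.130 and 0.0725 to 0.371) and 0.226%, 0.417% and 0.153% at 6 d (0.0616 to 0.578, 0.0505 to 1.497 and 0.00387 to 0.849). Its 5p to 3p ratio (log2) was 10.15 at 0 h and 8.05 at 6 d, a fall of 2.11 that was called (SE 0.64, limma adjusted p = 0.035), as were 38.8% of the 116 precursors tested (19.0% lower). That call rests on 20 reads of the 3p arm in all, 13 at 0 h and 7 at 6 d, and after thinning every library to 617069 reads the difference was -0.67 (limma adjusted p = 0.50). Thinning also cut the few 3p reads at 0 h, so that the added read held the ratio down, and its 0 h mean became 8.64. Dropping 0 h replicate 1, 0 h replicate 2, 6 d replicate 2 or 6 d replicate 3 also ended the call (limma adjusted p of 0.13, 0.11, 0.11 and 0.061), while the difference itself was -1.77, -1.83, -1.74 and -2.26.

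Of the miR-196 members, miR-196b-5p was present at a low level in all libraries. The 0 h libraries held 15, 21 and 20 reads of it (3.65, 3.49 and 3.09 CPM), and the 6 d libraries 7, 9 and 3 (4.46, 11.9 and 2.71 CPM). The 0 h libraries were close together, whereas 6 d replicate 2 was high and 6 d replicate 3 lay below all at 0 h. The log2 fold change was 0.54 ± 0.51 (SE) with a 95% interval of -0.61 to 1.68 (limma adjusted p = 0.43), and without 6 d replicate 2 it was 0.03. For miR-196a-5p 0 reads were counted at 0 h and 0, 1 and 1 at 6 d, and for miR-196a-1-3p 1 read in 0 h replicate 2 and none elsewhere. Both stayed under the floor in every library, so no fold change is given. For miR-196a-5p at 0 h, the limit that a count of 0 allows, taken as 3 reads, was 0.463 to 0.730 CPM per library.

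**Figure D3:**
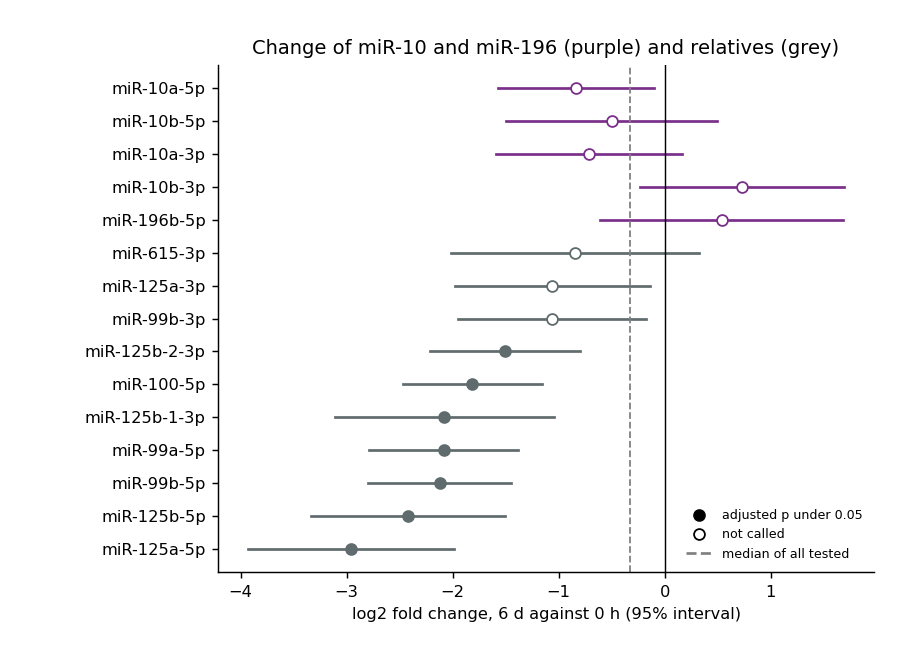
Log2 fold change of 6 d against 0 h (x axis) with its 95% interval for the 5 tested members (purple) and 10 tested relatives (grey). Filled points have a limma adjusted p under 0.05 and the dashed line is the median of all tested miRNAs, -0.33; no member is filled, and 7 relatives are, from miR-125b-2-3p at -1.505 to miR-125a-5p at -2.96.

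The wider miR-10 family outside the Hox clusters stood lower at 6 d. The list of relatives held miR-99a-5p and both arms of miR-99b, miR-100, miR-125a and miR-125b, and of miR-615, whose gene lies in the Hoxc cluster. Of its 12 rows 10 were tested, 7 fell and 0 rose, beside 21.9% of all tested miRNAs called lower, and the median log2 fold change was -1.94. These rows are not independent, since some are arms of the same hairpin and genes lie near each other. Mir100 and Mir125b-1 lie on chromosome 9, Mir99a and Mir125b-2 on chromosome 16, and Mir99b and Mir125a on chromosome 17. The 7 were all 5 tested 5p arms of miR-99a (log2 fold change -2.08), miR-99b (-2.12), miR-100 (-1.81), miR-125a (-2.96) and miR-125b (-2.42) and the 3p arms miR-125b-1-3p (-2.08) and miR-125b-2-3p (-1.505), with limma adjusted p between 0.00077 and 0.0076. The 3p arms miR-99b-3p (-1.07, limma adjusted p = 0.057) and miR-125a-3p (-1.06, limma adjusted p = 0.066) and the Hox-cluster miR-615-3p (-0.84, limma adjusted p = 0.22), with 31 reads at 0 h and 2 at 6 d, were not called. By edgeR 7 of the 9 tested were called lower, beside 19.6% of all miRNAs in that fit. With library totals alone limma called 4, beside 8.47%. The calls of miR-100-5p, miR-125b-1-3p and miR-125b-2-3p were then lost (limma adjusted p = 0.051, 0.063 and 0.12), at log2 fold changes of -1.35, -1.64 and -1.05.

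Whether the miR-10 guides and these relatives differed in their change was tested on ratios of reads within a library, a comparison added after the data were seen. The log2 ratio of miR-10a-5p to miR-99a-5p, the most abundant of the family, was -4.92, -5.02 and -5.78 at 0 h and -3.32, -4.26 and -4.40 at 6 d. All 3 ratios at 6 d lay above all 3 at 0 h, with a difference of 1.25. For miR-10a-5p the difference was 1.29 over miR-99b-5p, 0.98 over miR-100-5p, 2.12 over miR-125a-5p and 1.59 over miR-125b-5p. For miR-10b-5p the differences over the same 5 relatives were 1.59, 1.63, 1.31, 2.46 and 1.92. In each of these 10 ratios all 6 d libraries lay above all 0 h libraries. The same held for most tested miRNAs: for 71.9% of them over miR-99a-5p, 73.1% over miR-99b-5p, 66.7% over miR-100-5p, 81.7% over miR-125a-5p and 68.4% over miR-125b-5p, and for 63.9% over all 5 at once. The separation is therefore not particular to the miR-10 guides. Each exact two-sided permutation p was 0.1, the lowest value possible with 3 libraries a group, so none can pass 0.05 in this design. Adjusted over 11 ratios, that of the paralogs included, it was 0.11. The 10 ratios share 2 numerators and are not independent.

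Put as shares, miR-10a-5p and miR-10b-5p together made up 4.30%, 3.63% and 2.02% of the 5p reads of miR-10, miR-99, miR-100 and miR-125 at 0 h (exact binomial 95% intervals 4.24 to 4.36, 3.58 to 3.67 and 1.99 to 2.04). At 6 d they made up 11.8%, 6.69% and 5.64% (11.5 to 12.1, 6.36 to 7.03 and 5.42 to 5.87). Each 6 d library was above each 0 h library, and 6 d replicate 1 was the highest (exact two-sided permutation p = 0.1, adjusted over 5 shares 0.5). Of these 5p reads miR-99a-5p made up 85.4%, 84.8% and 90.3% at 0 h and 79.5%, 86.4% and 84.5% at 6 d. The share is thus mostly a ratio to miR-99a-5p, over which 71.9% of tested miRNAs separated in the same way. Its separation is therefore not read as particular to the miR-10 guides. The share is set by both sides: miR-99a-5p went from 113298 ± 27467 to 26384 ± 3619 CPM (SD, n = 3). The log2 fold changes of the miR-10 guides, -0.83 for miR-10a-5p and -0.50 for miR-10b-5p, did not pass the test. A missed threshold does not show an unchanged level, and the 95% interval for miR-10a-5p was -1.57 to -0.10.

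**Figure D4:**
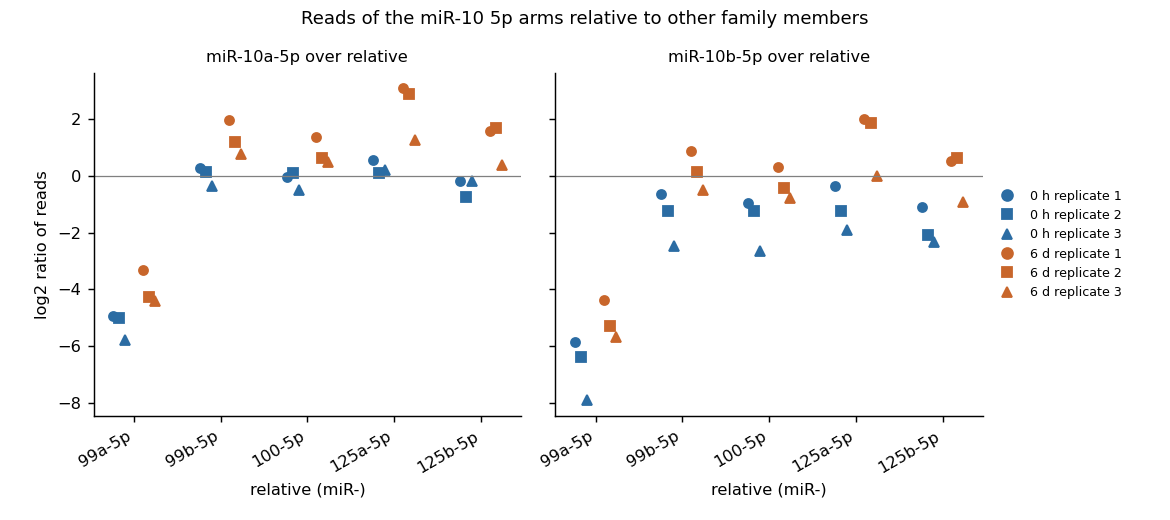
Log2 ratio of the reads of miR-10a-5p (left) and miR-10b-5p (right) to those of 5 relatives (x axis), 1 point per library, blue for 0 h and orange for 6 d. In all 10 pairs the orange points lie above the blue ones, for miR-99a-5p by 1.25 on average on the left and 1.59 on the right.

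The miRNAs most like each guide across the 6 libraries were found among 274 others with a mean of at least 10 CPM, by the root mean square distance between log2(CPM + 1) values centred on each miRNA's own mean. Nearest to miR-10a-5p were miR-532-5p (distance 0.13), miR-27b-3p (0.25) and miR-28a-5p (0.26). Their log2 fold changes were -0.87, -0.86 and -0.86, with limma adjusted p of 0.052, 0.049 and 0.059. The distance takes in the difference between the intervals, so similar fold changes follow from the choice and are no separate result. Nearest to miR-10b-5p were miR-203-3p (0.27), its paralog miR-10a-5p (0.40) and miR-19b-3p (0.41). The epithelial miR-203-3p stood at 320, 203 and 78.1 CPM at 0 h and at 246, 93.9 and 127 at 6 d, and so shared the high 0 h replicate 1 and low 0 h replicate 3 of miR-10b-5p. It does not stand for the epithelial list: 6 of those 7 markers were called higher at 6 d, but miR-203-3p was not (log2 fold change -0.26, limma adjusted p = 0.72). Among neighbours of miR-10a-5p its paralog ranked 33 and miR-100-5p, the nearest of the 5p relatives, ranked 89.

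**Figure D5:**
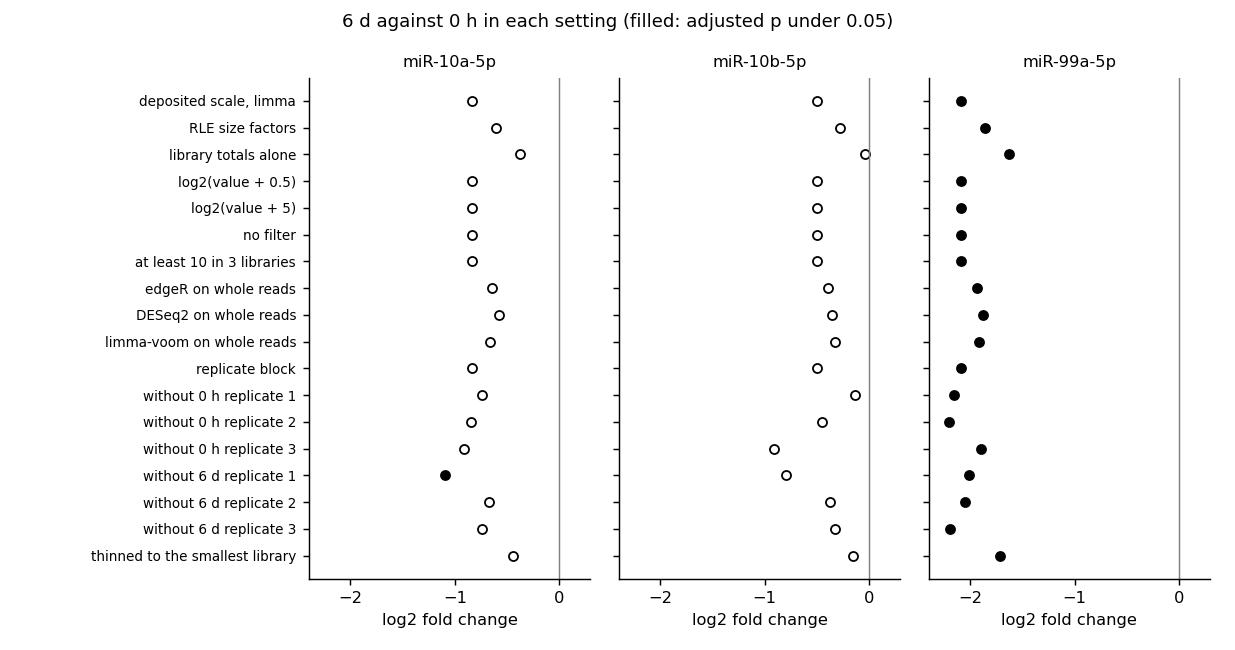
Log2 fold change of 6 d against 0 h (x axis) for miR-10a-5p, miR-10b-5p and, for comparison, miR-99a-5p under each setting (y axis); filled points have an adjusted p under 0.05. miR-10a-5p is filled only without 6 d replicate 1, miR-10b-5p in no setting and miR-99a-5p in all of those shown, and no point crosses 0.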

How the data were processed

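Trizol RNA and a NEBNext kit for small RNA libraries were used, per the labels' protocols. The tools named in the submitters' processing notes are STAR 2.5.3a, cutadapt 2.8, Trimmomatic 0.39 and FastQC; the sources used here give no roles, counter, annotation or build. For 0 h replicate 1 the deposited values are raw counts. The other 5 deposited files hold log2(x + 1) values with 3 decimals. Of the values x, all 2692 that could be tested, of 3110 above 0, were whole multiples of 1 step per library within rounding (0.0005 on the log2 scale). Reads were therefore taken as the nearest whole multiple. Larger values could not be tested because of the rounding, so their reads, and the library totals in these 5 files, are estimates. On these reads edgeR called 151 of 363 miRNAs. The counts were put on the scale of the other files by dividing by 0.919, the value at which the product of all 6 factors is 1. That the product is 1 is an assumption, and every CPM value of 0 h replicate 1 rests on it. Rows without a name (1604 per file) were dropped. Because most files are on a log2 scale, the test planned for normalised values was used: limma 3.58.1 with a trended, robust prior on log2(CPM + 1). Fold changes on this scale understate those of low miRNAs. Arm ratios were fitted with limma over 116 precursors. edgeR 4.0.16, DESeq2 1.42.0 and limma-voom were alternatives, as were other scalings, pseudocounts, filters, thinning to the smallest library (median of seeded draws), leaving out each library and a replicate block. The steps were also run on simulated data with the same dispersion for every miRNA and no scaling error. No result here rests on that run. Replicates of a group differed by far more than sampling noise (in each pair, chi-square was at least 216 times its degrees of freedom). Named miRNAs were all members, the called and the 3 most abundant relatives, and the 3 nearest in pattern to each miR-10 guide; the other relatives are given to complete the list. Members and lists were chosen with earlier results of these data known.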

Additional observations from a re-analysis of the deposited data

How the results depend on the processing

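None of the 5 tested members reversed its direction in a setting where it was tested. When 1 library was left out, the log2 fold change ranged from -1.09 to -0.67 for miR-10a-5p, from -0.83 to -0.55 for miR-10a-3p, from -0.91 to -0.13 for miR-10b-5p, from 0.62 to 1.04 for miR-10b-3p (only without 0 h replicate 1, 0 h replicate 2 or 6 d replicate 3, since it missed the filter in the other 3 cases) and from 0.03 to 0.93 for miR-196b-5p, and the number of members called from 0 to 1; the cause was not tested. The miR-10b arm ratio ranged from -2.73 to -1.74 in this way, was -1.99 (limma adjusted p = 0.055) with 0.5 read added, -2.46 (limma adjusted p = 0.0084) with 5 reads added, when that of miR-10a was -0.81 (limma adjusted p = 0.14), and was -0.67 after thinning. Thinning makes the depths equal but leaves so few 3p reads at 0 h that the added read limits the ratio. The part of depth in the fall therefore cannot be read from it. Of the relatives 7 to 8 were called when 1 library was left out and 4 with library totals alone. The paralog ratio ranged from -0.61 to -0.0041. Libraries with the same number deviated from their group means with correlations of 0.07, 0.06 and 0.27; since 2 of these are below 0.1, the numbers were not treated as pairs. With the replicate block miR-10a-5p had a log2 fold change of -0.83 (adjusted p = 0.059), the miR-10b arm ratio stayed called at -2.11 (adjusted p = 0.049), the miR-10a arm ratio was -0.24, the paralog ratio was -0.34 and 0 members and 7 relatives were called. The 3p arms and miR-196 are limited by depth: 3 reads at 6 d are worth up to 3.97 CPM. With RLE size factors, edgeR and limma-voom miR-10b-3p was not tested. At 10 CPM or more in 3 libraries only both miR-10 5p arms were tested, and requiring that of each arm left neither miR-10 arm ratio.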
